A study of Apis mellifera with 2 samples.

Results

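The miRNAs described here are miR-10, miR-993 and miR-iab-4 of the honey bee, which lie in the Hox cluster. They were chosen by name from a table of 692 entries, of which 53 carry honey bee miRNA names, and each of the 3 names occurred once. The rule for choosing them used names and not values, though earlier results of these data were already known. The table also lists 639 predicted entries, and predicted entry 10, with 583 queen and 1534 worker counts, shares a number with miR-10 and is not a member.

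The study sequenced small RNA from larvae of Apis mellifera ligustica, Zhenongda No.1, a breed kept for high royal jelly yield. The queen group held larvae that had been put into queen cups when less than 18 h old, counted from hatching, and the worker group held larvae left to become workers. Both groups came from the same 3 colonies and were collected on days 4, 5 and 6, when day-4 larvae were 73 to 90 h past hatching, day-5 larvae 97 to 114 h and day-6 larvae 121 to 138 h, with 40 to 60 larvae per colony. RNA of the 3 days was pooled into 1 queen library and 1 worker library, so each value is an average over colonies and days, and rearing is the 1 difference between the groups that the labels give. The comparison asks how the Hox cluster miRNAs stand among the miRNAs of each caste and whether they differ between castes.

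A miRNA is a short RNA that lowers the output of messenger RNAs whose untranslated regions pair with its seed, a stretch near its 5′ end. The Hox genes encode transcription factors that give body segments their identity, and miRNA genes lie among them in many animals. In Drosophila, miR-iab-4 comes from the part of the cluster that holds abd-A and Abd-B and represses Ubx, and its overexpression turns halteres towards wings. miR-10 lies in the Antennapedia complex of Drosophila and in Hox clusters of vertebrates, and miR-993 is an insect relative of miR-10.

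All 3 members matched genes of the RefSeq annotation of assembly Amel_HAv3.1, and all 3 lie on linkage group 16. The order along the group was miR-iab-4, Ubx, Antp, miR-10, miR-993. Ubx and Antp are the Hox genes that carry their fly names in that table, and the other 8 Hox names looked for were not matched. Between miR-10 and miR-993 the table places 3 genes, 1 of them protein-coding. Between Antp and miR-10 it places 5, and between miR-iab-4 and Ubx also 5, of which 1 is another miRNA gene, Mir6002. That gene has 0 entries among the named miRNAs counted and was not analysed here. miR-10 lies within the annotated span of 1 protein-coding gene, miR-993 within that of 1 long non-coding RNA, and miR-iab-4 within that of 1 protein-coding gene. The count table names no genome build, so no coordinates are given and the annotation serves for order alone.

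Depth was similar, at 2658259 listed counts for queens and 2318675 for workers. Levels are given as CPM, counts per 1000000 listed counts, so that 1 queen count equals 0.376 CPM and 1 worker count 0.431 CPM. Intervals are at the 95% level and cover counting error only. PCR copies of a molecule are not told apart, so the intervals may be too narrow. There was 1 library per caste, which allows no p-value, and a ratio compares these libraries rather than the castes at large. In RNA of pooled larvae, fewer cells that make a miRNA and less miRNA per cell cannot be told apart.

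miR-993 was the most counted of the members in both castes. It had 16106 counts in the queen library, or 6059 CPM (5966 to 6153), and 23085 in the worker library, or 9956 CPM (9829 to 10085). The worker level lay above the queen level, and the intervals did not overlap. As a share of listed counts this was 0.606% in queen and 0.996% in worker larvae, rank 13 and rank 11 among the 53 named miRNAs.

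miR-iab-4, the miRNA named after the infra-abdominal region of the fly cluster, came second. It had 9063 counts in the queen library, or 3409 CPM (3340 to 3480), and 7368 in the worker library, or 3178 CPM (3106 to 3251). Here the queen level was the higher, and again the intervals did not overlap. Its ranks among named miRNAs were 15 and 17.

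miR-10, the member found in Hox clusters from insects to vertebrates, was the least counted. It had 564 counts in the queen library, or 212 CPM (195 to 230), and 752 in the worker library, or 324 CPM (302 to 348). Like miR-993 it was higher in the worker library, with intervals that did not overlap. Its ranks were 34 and 32.

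**Figure D1:**
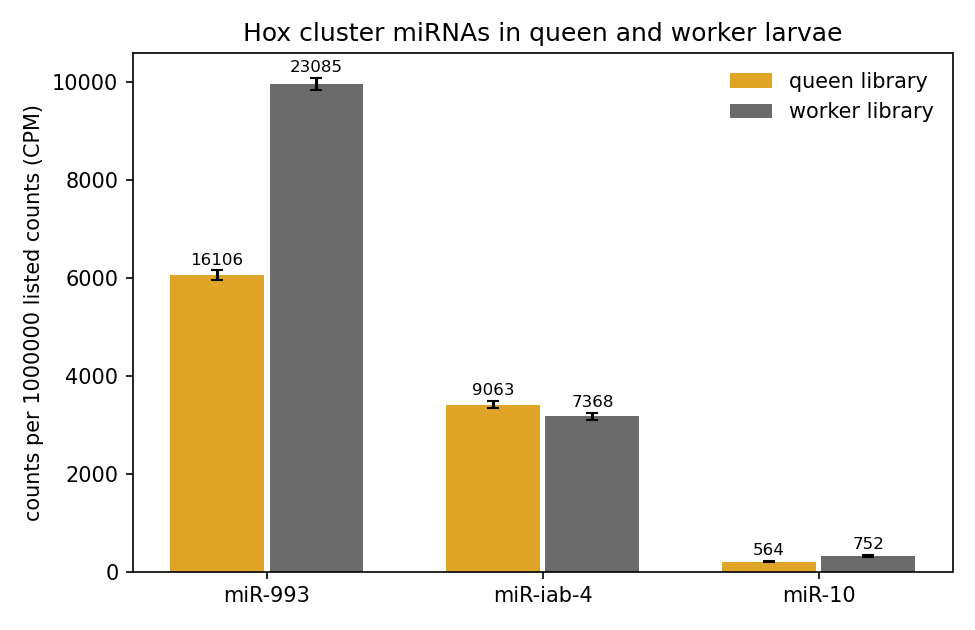
Level of each member in counts per 1000000 listed counts (CPM, vertical axis, linear) in the queen library and the worker library. Bars are single libraries, error bars are exact 95% intervals for counting error, and the numbers above are raw counts; miR-993 and miR-10 stand higher in the worker library, and miR-iab-4 slightly higher in the queen library.

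The order miR-993, miR-iab-4, miR-10 was the same in both libraries, but the distances differed. In the queen library miR-993 had 1.78 times the counts of miR-iab-4 (1.73 to 1.82), and in the worker library 3.13 times (3.05 to 3.22). miR-iab-4 had 16.1 times the counts of miR-10 in the queen library (14.8 to 17.5) and 9.80 times in the worker library (9.09 to 10.6). miR-993 had 28.6 times the counts of miR-10 in the queen library (26.3 to 31.1) and 30.7 times in the worker library (28.5 to 33.1), and these last intervals overlap. Each counted read was taken to stand for 1 mature miRNA, so these levels were not scaled by length. Some sequences are ligated and amplified more readily than others, so a ratio of counts between miRNAs is not a ratio of molecules. The table does not tell the arms of a precursor apart, and the sources used here do not say how reads fitting both miR-10 and its relative miR-993 were assigned.

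Together the members accounted for 0.968% of the queen library (0.956 to 0.980) and 1.35% of the worker library (1.33 to 1.36). Within their sum, miR-993 took 62.6% in the queen library (62.0 to 63.2) and 74.0% in the worker library (73.5 to 74.5). miR-iab-4 took 35.2% in the queen library (34.6 to 35.8) and 23.6% in the worker library (23.1 to 24.1). miR-10 took 2.19% (2.02 to 2.38) and 2.41% (2.24 to 2.59), and these intervals overlap. The makeup of the members' reads therefore differed between the libraries mainly in the balance of miR-993 and miR-iab-4.

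Among named miRNAs the members stood beside the following neighbours in level. In the queen library miR-993 lay between miR-375, at 7102 CPM, and miR-100, at 4635 CPM, and differed from both beyond counting error. In the worker library it lay between miR-283, at 11641 CPM, and let-7, at 8489 CPM, again apart from both. miR-iab-4 lay just above miR-317 in the queen library, where miR-317 had 3366 CPM and the ratio of the pair was 1.01 (0.983 to 1.04), so their order is not resolved. In the worker library it lay below miR-317, at 3575 CPM, by a ratio of 1.13 (1.09 to 1.16), and its order with miR-13b, at 3097 CPM, was not resolved (1.03, 0.993 to 1.06). miR-10 could not be ordered against miR-92a, at 220.4 CPM, or miR-124, at 207 CPM, in the queen library. In the worker library its order with miR-125, at 310 CPM, was also not resolved (1.05, 0.944 to 1.16), and miR-79 stood 2.23 times higher (2.04 to 2.43).

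Between castes, none of the members reached the 2-fold threshold. In the worker library miR-993 was higher by a factor of 1.64 (1.61 to 1.68), and miR-10 by a factor of 1.53 (1.37 to 1.71). In the queen library miR-iab-4 was higher by a factor of 1.07 (1.04 to 1.11). Calls required a ratio of at least 2-fold with an interval that excluded 1, and were made among the 49 named miRNAs with at least 20 counts. Under that rule 24.5% of the 49 were called in the worker direction and 2.04% in the queen direction, and 0 of the 3 members in either. At 1.5-fold, miR-993 and miR-10 were called in the worker direction, where 40.8% of the 49 were called too, and no member in the queen direction, where 6.12% were. A lean towards workers of the size seen for miR-10 and miR-993 was thus common among the named miRNAs. These 1.5-fold calls also depended on the scaling: with TMM factors, median of ratios or totals without the 5 most abundant miRNAs, neither was called. With the last of these miR-iab-4 was called in the queen direction instead, as were 24.5% of the 49.

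The median log2 ratio of queen over worker over the 49 named miRNAs was −0.36, with 37 below 0 and 12 above, and the median of the members was −0.61. That split belongs to scaling by totals: with TMM factors or median of ratios 23 lay below 0 and 26 above, and without the 5 leading miRNAs 22 and 27. Ranked from the most worker-leaning, miR-993 stood at 17 of 49, miR-10 at 19 (tied with miR-137) and miR-iab-4 at 40. Relative to the median named miRNA, the log2 distance was −0.36 for miR-993, −0.25 for miR-10 and 0.46 for miR-iab-4. These distances are the same under all 5 scalings, but they rest on the 49 named miRNAs as the reference. Another reference would give other distances. miR-iab-4 thus stood on the queen side of the typical named miRNA, and the other two on its worker side.

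**Figure D2:**
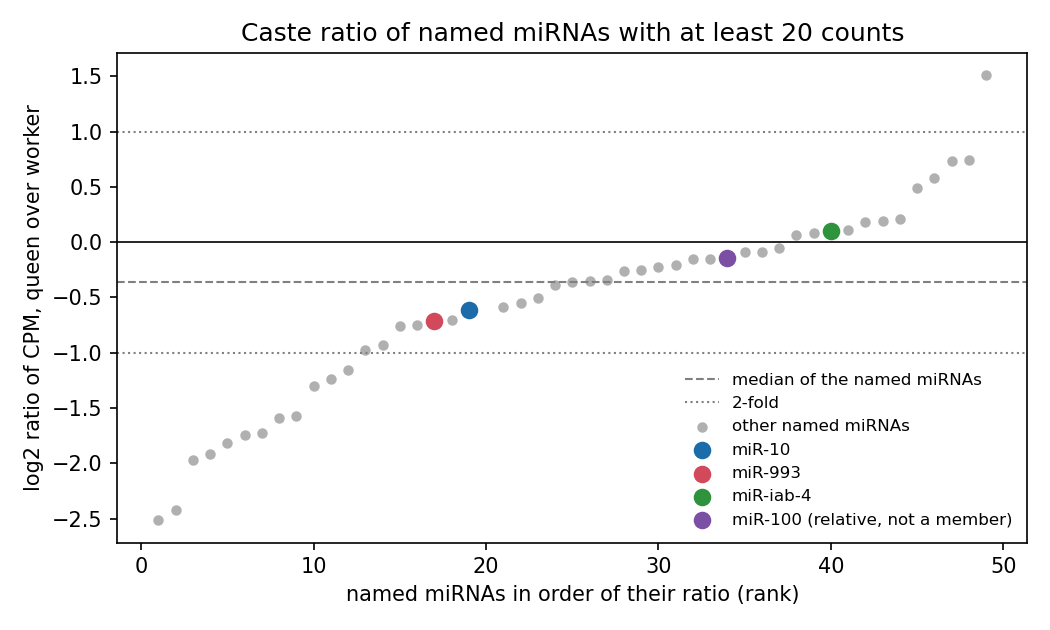
Log2 ratio of CPM, queen over worker (vertical axis), for the 49 named miRNAs with at least 20 counts, in rank order from the most worker-leaning (horizontal axis). Coloured points are the members and miR-100, dotted lines mark 2-fold and the dashed line the median of −0.36; miR-993 and miR-10 lie below the median at ranks 17 and 19 and miR-iab-4 above it at rank 40.

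The ratio of a pair of members, set against the same ratio in the other caste, does not depend on how the libraries are scaled. For the neighbours miR-10 and miR-993, the ratio of miR-10 over miR-993 in the queen library was 1.07 times that in the worker library (0.960 to 1.20). No difference in their balance was thus detectable at this depth, and the interval allows up to 1.20-fold. How reads fitting both of these relatives were assigned is not known, and the part of such reads in this balance was not tested. For miR-iab-4 over miR-993 the queen value was 1.76 times the worker value (1.70 to 1.83). For miR-iab-4 over miR-10 it was 1.64 times (1.46 to 1.84). Both of these balances differed between the libraries beyond counting error, and in the same direction, though they share the counts of miR-iab-4.

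The same quantity for all 1176 pairs of the 49 named miRNAs gives a measure of how large such changes usually are. Its median was 0.79 on the log2 scale, taken without sign. The change of 0.10 between miR-10 and miR-993 was at or above that of 84 of these pairs, itself counted, or 7.14%. With its sign, miR-10 over miR-993 and queen over worker, its interval was −0.06 to 0.27. Its place among the pairs is therefore not well resolved. The changes of 0.71 for miR-iab-4 with miR-10 and 0.82 for miR-iab-4 with miR-993 lay near the middle, with 46.9% and 51.7% of pairs at or below them. The pairs share miRNAs and are not independent, so these shares are a description. Some of the 49 had few counts, such as miR-137 with 12 and 16 and miR-316 with 30 and 29. Counting error adds to the spread of pairs that hold them. Among all 1176 pairs, a shift of the size seen for miR-iab-4 against its cluster partners was ordinary. Pairs of well-counted miRNAs were not looked at apart.

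**Figure D3:**
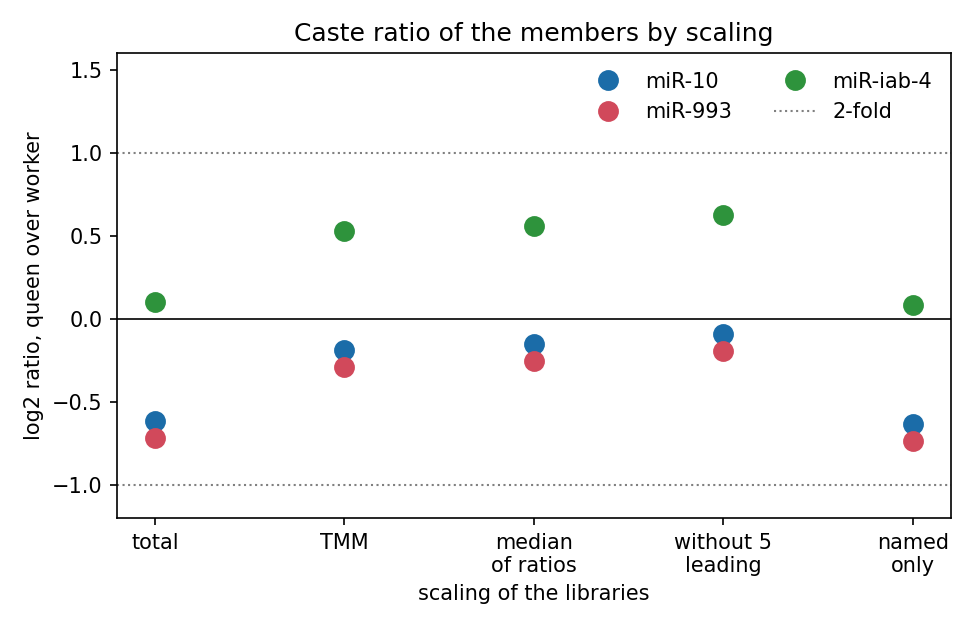
Log2 ratio of queen over worker (vertical axis) of each member under 5 scalings of the libraries (horizontal axis); dotted lines mark 2-fold. The 3 members move by the same amount from scaling to scaling, miR-iab-4 stays above 0 and miR-10 and miR-993 below it, and none reaches 2-fold.

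Scaling set the size of every caste ratio. With TMM factors, which assume that most entries do not differ, the worker level was 1.22-fold that of queens for miR-993 and 1.14-fold for miR-10, and the queen level was 1.44-fold that of workers for miR-iab-4. With the totals taken without the 5 most abundant miRNAs these became 1.14-fold, 1.07-fold and 1.54-fold. The directions held under all 5 scalings, but for miR-10 the interval included 1 with median of ratios (0.805 to 1.01 for queen over worker) and without the 5 leading miRNAs (0.840 to 1.05). The plot of scalings shows that the distance between miR-iab-4 and the other members stayed the same throughout.

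miR-100 is a relative of miR-10 that lies with let-7 rather than in the Hox cluster, on linkage group 8. It had 12322 counts in the queen library, or 4635 CPM (4554 to 4718), and 11887 in the worker library, or 5127 CPM (5035 to 5219). With library totals its worker level was 1.11-fold its queen level (1.08 to 1.13), but the direction turned with TMM factors, median of ratios and totals without the 5 leading miRNAs, at log2 values of queen over worker of 0.28, 0.31 and 0.38. Its rank of 34 of 49, between its relatives and miR-iab-4, does not depend on the scaling. Of the 3 relatives miR-10, miR-993 and miR-100, 0 were called in either direction at 2-fold, where 24.5% of the 49 named miRNAs were called in the worker direction and 2.04% in the queen direction, so that 0 of 3 says little. The balance of miR-993 over miR-100 was 1.49 times higher in the worker library (1.44 to 1.53) and that of miR-10 over miR-100 was 1.38 times higher (1.23 to 1.55). miR-iab-4 over miR-100 was 1.19 times higher in the queen library (1.14 to 1.24). miR-iab-8, from the strand opposite miR-iab-4 in Drosophila, has 0 entries among the named miRNAs and was not analysed here.

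The named miRNAs whose caste ratio was closest to a member's were found by the difference of log2 ratio over the 2 libraries. Nearest to miR-993 were miR-278, at −0.71, and miR-87, at −0.75. Nearest to miR-10 were miR-137, at −0.61 on 12 and 16 counts, with an interval from −1.82 to 0.56, and miR-33, at −0.59. Nearest to miR-iab-4 were miR-12, at 0.11, and miR-996, at 0.08. With a single ratio per miRNA, such likeness says only that these libraries gave similar values.

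Some miRNAs that mark tissues also differed between the libraries. The 5 looked at were miR-1 and miR-133 of muscle, miR-124 and miR-7 of neurons and miR-281 of the midgut. All 5 had a log2 ratio below 0 with library totals, as had 37 of the 49 named miRNAs. Of the 5, 4, all but miR-1, were at least 2-fold higher in workers under each of the 5 scalings. With library totals, 24.5% of the 49 were called in the worker direction at 2-fold. miR-1 turned to the queen side with TMM factors (0.16), median of ratios (0.20) and totals without the 5 leading miRNAs (0.26). The neuronal pair summed to 582 CPM in queens and 2422 CPM in workers. Another nervous system miRNA, miR-137, was not on the list. With library totals its log2 ratio was −0.61 (−1.82 to 0.56) on 12 and 16 counts. That interval holds 0 and also the value of miR-7, −1.73. Whether the neuronal pair stands for other miRNAs of the nervous system is therefore not known. The muscle pair, nearly all of it miR-1, had 150113 and 180024 CPM, and miR-281 had 7.52 and 22.4 CPM. For miR-281 this rests on 20 and 52 counts, and its log2 interval with library totals, −2.40 to −0.81, spanned 2-fold. Without the 5 leading miRNAs its value was −1.05. The 4 moved in the direction of miR-10 and miR-993 and against that of miR-iab-4, whereas the side of miR-1 depended on the scaling, and the part of any of them in the members' values was not tested.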

How the data were processed

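Whole-number counts per miRNA entry were used as deposited by the authors, with 1 column per caste. The sources used here do not name the aligner, the genome build, the miRNA annotation or the rule for reads fitting more than 1 miRNA. Per the labels' protocols, RNA of 18 to 30 nt was cut from a gel, ligated to adapters, amplified and sequenced on a Solexa instrument. A further 242 columns of the table have 0 filled cells and were not used. Counts were scaled to library totals. Ratios between libraries and between members carry exact conditional (Clopper-Pearson) 95% intervals, and changes of a ratio between castes carry exact conditional intervals of the odds ratio. A count of 0 would be replaced by 3 counts, and the members had 0 such counts.

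The members, lists and alternatives were chosen with earlier results of these data known. Besides the members, the text names their neighbours in level, the 2 miRNAs nearest in ratio, the relatives of miR-10 and tissue miRNAs. Scaling factors came from edgeR 4.0.16 and DESeq2 1.42.0 in R 4.3.3, and no test of either was run. The factors were computed from the counts of all 692 entries, 639 of them predicted, rather than from the named miRNAs alone. Intervals came from scipy 1.17.1 in Python 3.11.15, with pandas 2.3.3, numpy 2.4.6 and, for plots, matplotlib 3.10.9. Calls were tested on simulated data, a queen and a worker library of 692 entries with counting error alone. They found 40 of 40 entries changed 3-fold and 1 of 94 unchanged ones. The changed entries were drawn from those with at least 40 counts. Changes as small as the members' were not simulated, so this says nothing on how such changes are called.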

Additional observations from a re-analysis of the deposited data

How the results depend on the processing

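Scaling was the choice that moved the members' values. The queen over worker ratio of miR-10, 0.654 with library totals, stood at 0.879 (TMM factors), 0.900 (median of ratios) and 0.939 (totals without the 5 most abundant miRNAs). That of miR-993, 0.609, became 0.818, 0.837 and 0.873, and that of miR-iab-4, 1.07, became 1.44, 1.48 and 1.54. Totals of named miRNAs alone left all 3 within their intervals. Each scaling adds a constant to every log2 ratio (0.43, 0.46, 0.52 and −0.02), so ratios between members are the same under all of them. Calls among the 49 named miRNAs numbered 1 in the queen direction, against 4, 4 and 5 under the first 3 of these scalings and 3 at 1.5-fold. In the worker direction there were 12, against 9, 9 and 9 under the same 3, 13 with totals of named miRNAs and 20 at 1.5-fold. With a 99% interval the ratios of all pairs of members stayed on their side of 1, and that of miR-10 over miR-993 between castes still included 1. No paired analysis was possible because the castes were sequenced as single libraries, and for the same reason none could be left out. Depth limits miR-10 most: its caste ratio is known to within about 0.585 to 0.731 from counting alone.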

Other observations

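Linkage group 16 of the RefSeq annotation also holds the muscle miRNAs miR-1 and miR-133, seen after the members' positions were looked up. On 398994 queen and 417277 worker counts, the queen over worker value of miR-1 was −0.26 in log2 (−0.27 to −0.26) with library totals, a direction that turned with 3 of the 4 other scalings. For miR-133, with 46 and 141 counts, it was −1.81 (−2.33 to −1.32). The 5 named miRNAs found on this linkage group, of 50 whose names were matched, therefore ranged from −1.81 to 0.10 with scaling to totals, and miR-iab-4 was the highest of them.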
